A study of Mus musculus with 36 samples.

Results

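Peaks of 3 pluripotency factors (Oct4, Sox2, Nanog) and of the promoter mark H3K4me3 were examined in 5 windows of the mouse genome around genes of Nodal and bone morphogenetic protein (BMP) signalling. The windows, on build mm9, were 110 kb around Nodal on chromosome 10, 160 kb around Lefty1 and Lefty2 on chromosome 1, 140 kb around Smad7 on chromosome 18, 110 kb around Id1 on chromosome 2 and 100 kb around Id3 on chromosome 4. Their peaks ran from 60837769 to 60939497 in the Nodal window, from 182774466 to 182910528 in that of Lefty1 and Lefty2, from 75471497 to 75610013 at Smad7, from 152511771 to 152618567 at Id1 and from 135662494 to 135737305 at Id3. They were chosen by position and hold 267 of the 292990 peaks used from 14 deposited lists. Overlapping peaks were merged, which gave 58 regions of 84988 over the genome. Regions are numbered along each window. There were 11 regions in the Nodal window, 14 in that of Lefty1 and Lefty2, 15 for Smad7, 10 for Id1 and 8 for Id3.

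The cells were mouse embryonic stem cells moved from serum to 2i, a serum-free medium with inhibitors of the kinases MEK and GSK3, and both media held the cytokine LIF. In the established line KH2, ChIP-seq was done after 24 h of 2i and in serum for Oct4, and in serum, after 24 h and after 3 passages of 2i for Sox2, for Nanog with antibody lot 1, and for H3K4me3. With lot 2 of the Nanog antibody there were TKO cells after 24 h of 2i, which are labelled as a DNA methyltransferase triple knockout, KH2 cells after 24 h of 2i, and KH2 cells in serum labelled GFP-high. What the GFP reports was not given in the sources used here, and the serum cultures were kept on feeder cells of mouse embryo fibroblasts. Each condition has 1 list, the labels give 6 of the lists a single sample, and the lists hold no value per replicate. Replicate error is therefore unknown for every difference given here. Fold enrichment is the authors' value for a single peak, a ratio over their control, and serves here to order peaks within 1 list. The lists held 5011 to 41755 peaks and reached down to a −log10 q between 3.69 and 86.4, so a site missing from a list may lie below its limit. Their read depth is unknown.

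Nodal is a secreted TGF-beta family ligand that signals through Smad2 and Smad3 and acts on its own gene, while Lefty1 and Lefty2 are secreted inhibitors of Nodal and are induced by the same signal. Smad7 is an inhibitory Smad that blocks TGF-beta and BMP receptors and is induced by both pathways as feedback. Id1 and Id3 code for proteins that bind basic helix-loop-helix factors and keep them off DNA, and in mouse embryonic stem cells they are classical targets of BMP, through Smad1 and Smad5, and of serum. Oct4 and Sox2 bind DNA side by side at many enhancers of these cells, often with Nanog. H3K4me3 is a mark of active or poised promoters.

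Promoter sequences were at hand for 2 of the 5 genes looked up, Nodal and Id3. Entries were looked up for Lefty1, Lefty2 and Id1 as well. Both sequences come from RefSeq on build GRCm38.p6 and run from 250 bases before to 50 after the gene's start. They are shown because no entry was matched for the other genes looked up. They were not placed against the mm9 peaks. Capitals mark the Smad box CAGAC on either strand.
Id3 promoter, chr4:136143572-136143871, plus strand: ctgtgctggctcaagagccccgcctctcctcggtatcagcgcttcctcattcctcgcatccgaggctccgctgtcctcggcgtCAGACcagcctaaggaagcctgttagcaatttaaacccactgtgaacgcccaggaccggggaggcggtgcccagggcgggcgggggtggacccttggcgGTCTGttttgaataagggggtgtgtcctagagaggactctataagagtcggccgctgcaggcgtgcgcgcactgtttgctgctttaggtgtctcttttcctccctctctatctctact
Nodal promoter, chr10:61417722-61418021, plus strand: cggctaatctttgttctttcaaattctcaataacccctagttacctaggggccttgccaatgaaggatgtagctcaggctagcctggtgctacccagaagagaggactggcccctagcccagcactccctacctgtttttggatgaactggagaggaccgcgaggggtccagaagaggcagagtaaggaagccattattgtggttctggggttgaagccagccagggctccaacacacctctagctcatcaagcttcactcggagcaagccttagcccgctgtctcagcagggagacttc
The Id3 promoter held 2 Smad boxes, a motif found in 49.6% of 32851 RefSeq promoters of the same length, and the Nodal promoter held none. None of the other 5 motifs searched on both strands lay in either sequence. These were the octamer ATTTGCAT (in 1.74% of promoters), the Sox motif CATTGT (12.6%), the Smad palindrome GTCTAGAC (0.213%, which holds no full CAGAC), the GC-rich Smad site GGCGCC (11.9%) and the Foxh1 motif AATNNACA (12.2%). The Id3 promoter had 19 CpG dinucleotides and the Nodal promoter 5, beside a median of 7 over all promoters.

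Nanog was called in more regions of the windows than Sox2 or Oct4, with 6 lists for Nanog, 3 for Sox2 and 2 for Oct4. Of the 43 regions with a factor peak, 43 had a Nanog peak in at least 1 list, beside 95.7% of such regions over the genome. Sox2 was called in 15 of them, or 34.9%, beside 28.6%, and Oct4 in 7, or 16.3%, beside 12.4%. Nanog without Sox2 or Oct4 held 28, or 65.1%, beside 69.2%, so these shares lie near those of the genome. The 7 Oct4 regions all held Sox2 and Nanog peaks that overlapped the Oct4 peak, and in 14 of the 15 Sox2 regions a Nanog peak overlapped that of Sox2. The exception was Id1 region 7, where Sox2 and Nanog peaks belong to 1 region only through a peak of H3K4me3 between them. Over the genome 78.2% of Oct4 regions held both other factors and 87.1% of Sox2 regions held Nanog, counted by merged region. Another 15 regions, 25.9% of the 58, held H3K4me3 without any factor, and 11, or 18.97%, held both, beside 17.5% and 9.17% of all regions. Only 3 regions were called in all 11 factor lists, Id3 region 5, Lefty region 11 and Lefty region 5, where Lefty stands for the shared window of Lefty1 and Lefty2. They make up 6.98% of the 43 regions, beside 3.16% of all regions with a factor peak. Of the 43 regions, 11 were in all 6 Nanog lists, or 25.6%, beside 13.8% of all regions with a Nanog peak.

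**Figure D1:**
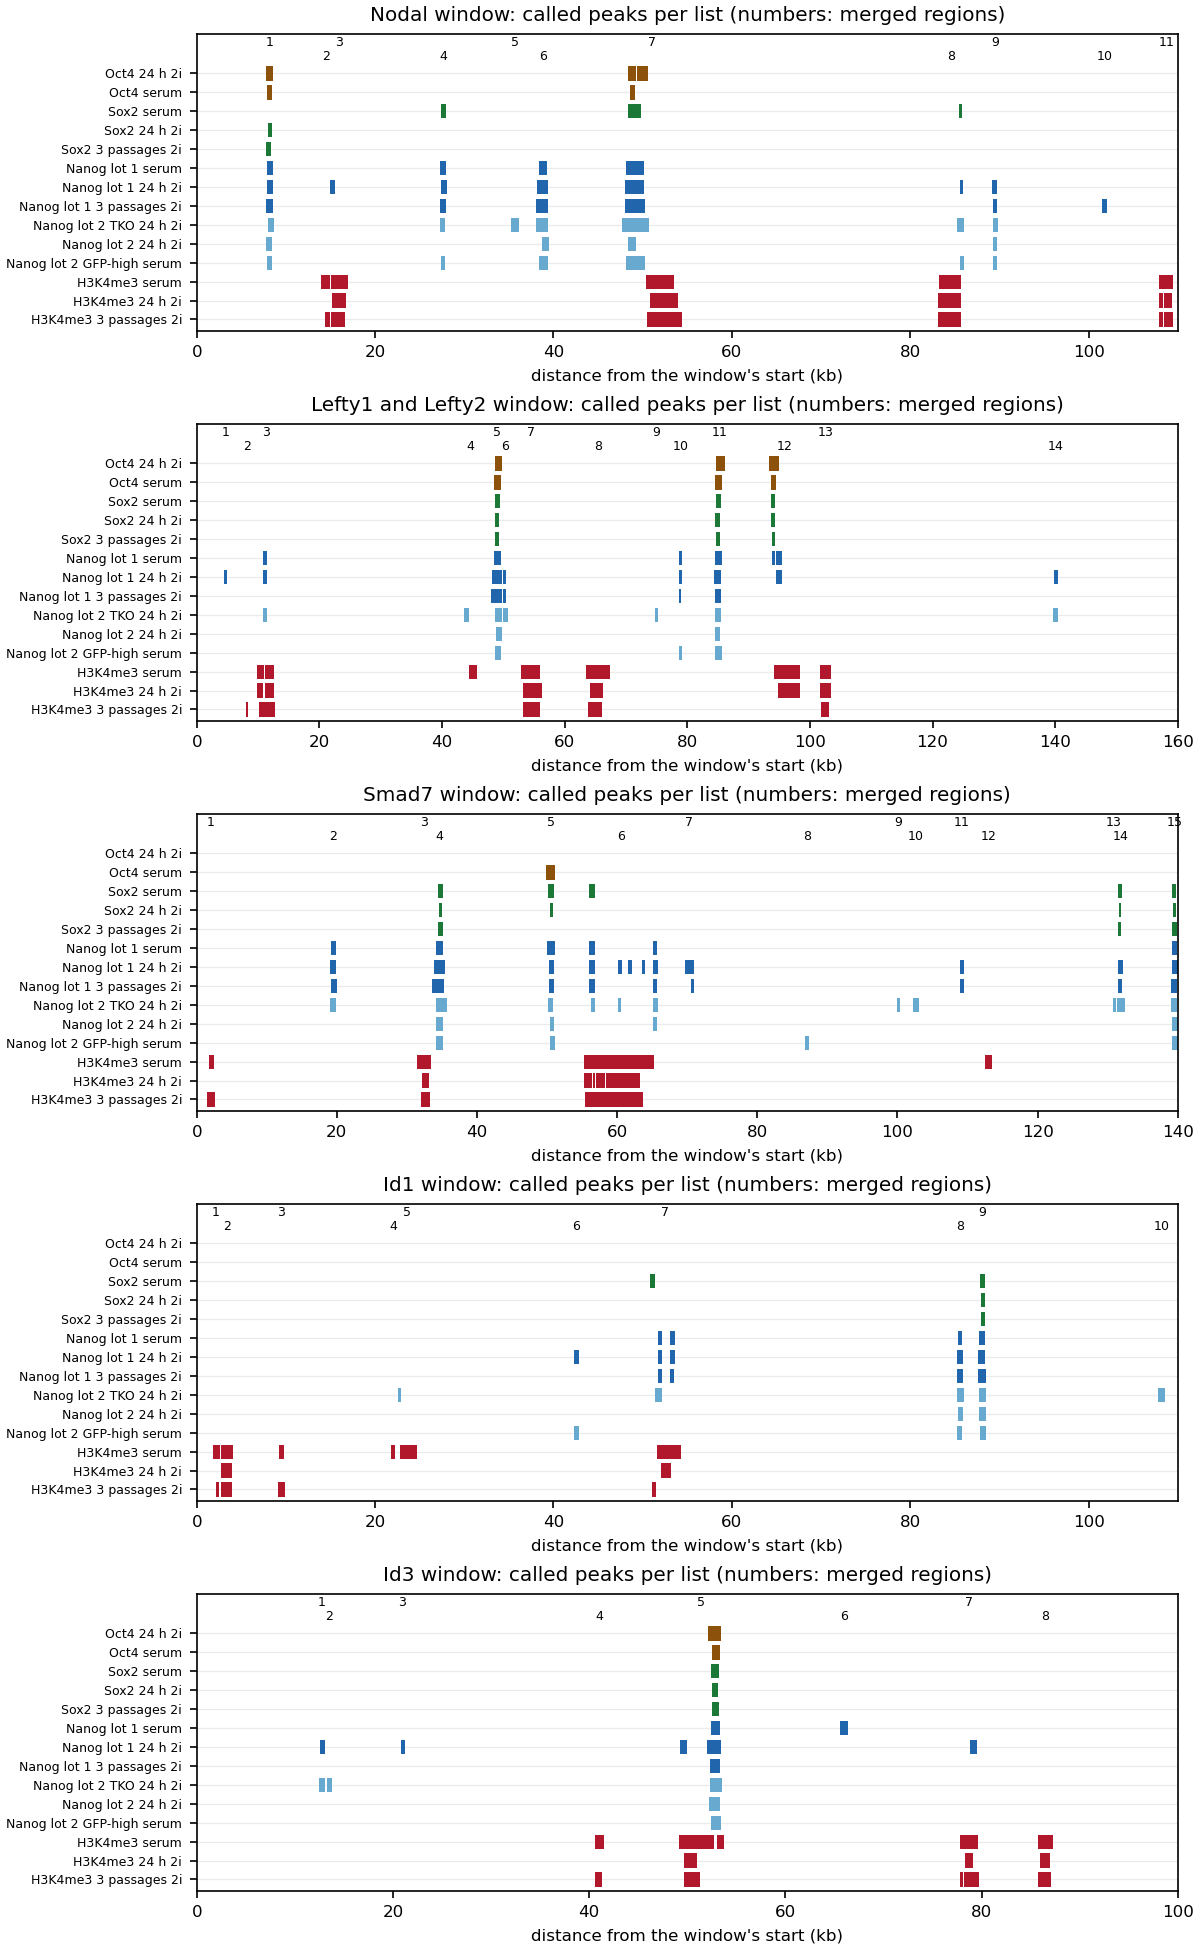
Peaks of the 14 lists in each window, by distance from the window's start in kb (horizontal) and by list (vertical). Bars span called peaks in brown for Oct4, green for Sox2, dark blue and light blue for Nanog lots 1 and 2, and red for H3K4me3, with region numbers on top. Oct4 bars are missing from the Id1 window, and Id3 region 5 and Lefty regions 5 and 11 have a bar in every factor list.

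In the Nodal window the 3 factors met at region 7, on chromosome 10 from 60877704 to 60884411, beside the H3K4me3 peak of the same region. Nanog was called there in all 6 lists. With lot 1 its fold was 30.02 in serum, 28.4 at 24 h and 16.3 at 3 passages. Lot 2 gave 21.3 in TKO cells and 7.19 in KH2 cells at 24 h, and 10.5 in GFP-high serum, the higher of 2 peaks there. For Oct4 there were 2 peaks at 24 h, with folds of 16.4 and 12.7, against 1 of 10.6 in serum. Sox2 was called in serum only, with a fold of 9.35. Its −log10 q of 54.8 stood above the lowest value of the serum list, 17.3, and the lists of 24 h and 3 passages reached down to 3.69 and 7.52.

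The reverse calls were made at Nodal region 1 (60837769 to 60838650), where Sox2 was called in 2i, with folds of 8.63 at 24 h and 4.85 at 3 passages, and was not called in serum. The −log10 q of these peaks was 19.3 at 24 h and 8.65 at 3 passages, and the serum list of Sox2 reached down to 17.3. The value of the 3 passage peak was under that limit. Read depth is unknown, so −log10 q values of 2 lists are not on 1 scale. Oct4 was present in both media there, with a fold of 19.7 at 24 h and 11.5 in serum, and Nanog in all 6 lists with folds of 6.45 to 23.7. The Oct4 peak of serum had a −log10 q of 86.4, the lowest of its list. Region 1 carried no H3K4me3. Of the 4 Sox2 regions of the Nodal window, none was shared between 24 h and serum. Region 1 was called only at 24 h, and regions 4, 7 and 8 only in serum, and the calls were the same for 3 passages against serum. With the Sox2 lists held to a −log10 q of at least 10, no region was left that only 3 passages called. With 4 regions and 1 list a condition this is a description of these lists.

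Other sites of the Nodal window were called by fewer lists. Region 4 (60857271 to 60858017) had Nanog folds of 17.1 in serum, 14.5 at 24 h and 7.85 at 3 passages with lot 1, and a serum Sox2 peak of 9.06. Region 8 (60913071 to 60916041), the H3K4me3 region with the highest serum fold of the windows, 33.1, carried Nanog in TKO cells with a fold of 21.5, in KH2 cells at 24 h with lot 1 with 6.77 and in GFP-high serum with 7.69. Its H3K4me3 covered 2458 bp in serum, 2524 bp at 24 h and 2639 bp at 3 passages. The remaining Nanog regions without H3K4me3 were called in 1 to 6 lists, with folds of 4.46 to 13.8.

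The strongest binding near the Nodal inhibitors lay at Lefty region 11, on chromosome 1 from 182854418 to 182856211, with no H3K4me3 peak. It was called by all 11 factor lists. Oct4 had a fold of 43.7 at 24 h and 35.8 in serum. Sox2 had 37.3 in serum, 23.1 at 24 h and 18.2 at 3 passages. For Nanog with lot 1 the folds were 69.1 in serum, 44.5 at 24 h and 39.7 at 3 passages. Lot 2 gave 96.7 in TKO cells, 24.8 in KH2 cells at 24 h and 37.3 in GFP-high serum. Within the Nanog list of serum this peak was number 46 of 25534 by −log10 q. By the same value the region ranked in the top 6.66% or better of every factor list. By fold it ranked in the top 14.4% or better, with its lowest place in KH2 cells at 24 h with lot 2. The summits of the 11 lists lay within 108 bp of each other, beside a median of 113 bp over the 2214 regions that all 11 lists called.

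Lefty region 5 (182817995 to 182819828) was the other site of the window called in every factor list, again without H3K4me3. Its folds were below those of region 11 in all 11 lists, at 0.233 to 0.530 of the value of region 11. The Oct4 fold was 11.5 at 24 h and 12.7 in serum. Sox2 had 19.1 in serum, 12.3 at 24 h and 8.94 at 3 passages, and Nanog had 5.78 to 35.6 over its 6 lists. Both sites were thus called before and after serum was removed, and their order within a list was the same in each.

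Lefty region 12 (182863274 to 182868402) paired factor binding with H3K4me3. Oct4 was called with a fold of 29.7 at 24 h and 25.2 in serum, and Sox2 with 23.0 in serum, 15.5 at 24 h and 7.73 at 3 passages. Nanog was called by lot 1 in serum, with a highest fold of 11.5, and at 24 h, with 9.66, and in none of the other 4 Nanog lists. H3K4me3 covered 4203 bp in serum with a fold of 12.8 and 3528 bp in 2 peaks at 24 h with a highest fold of 17.8. The strongest summits of the 7 factor lists spread over 868 bp, and at 24 h the Sox2 peak ended at 182864269, before the Nanog peak began at 182864431, with an Oct4 peak over both. At 3 passages no H3K4me3 peak was called. The −log10 q of this region had been 47.8 in serum and 59.6 at 24 h, and the lowest value in the 3 passage list was 14.3. Among the 25 H3K4me3 regions of serum in the windows, merged over all lists, it was the only one called at 24 h and absent at 3 passages. By direct overlap of H3K4me3 peaks, Id1 region 7 had the same pattern. Its 3 passage peak overlapped neither the serum peak nor that of 24 h.

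H3K4me3 at Lefty regions 7 and 8, which had no factor peak, was called in all 3 conditions. Region 7 (182822906 to 182826282) was covered over 3042 bp in serum, 3009 bp at 24 h and 2776 bp at 3 passages, with folds of 11.97, 9.53 and 6.13. Region 8 (182833509 to 182837339) was covered over 3831, 2218 and 2311 bp. The gene tables at hand are of build GRCm38.p6, so mm9 regions were not tied to single genes. Lefty1 and Lefty2 are paralogues, and the placing of reads that match both was not given in the sources used here.

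**Figure D2:**
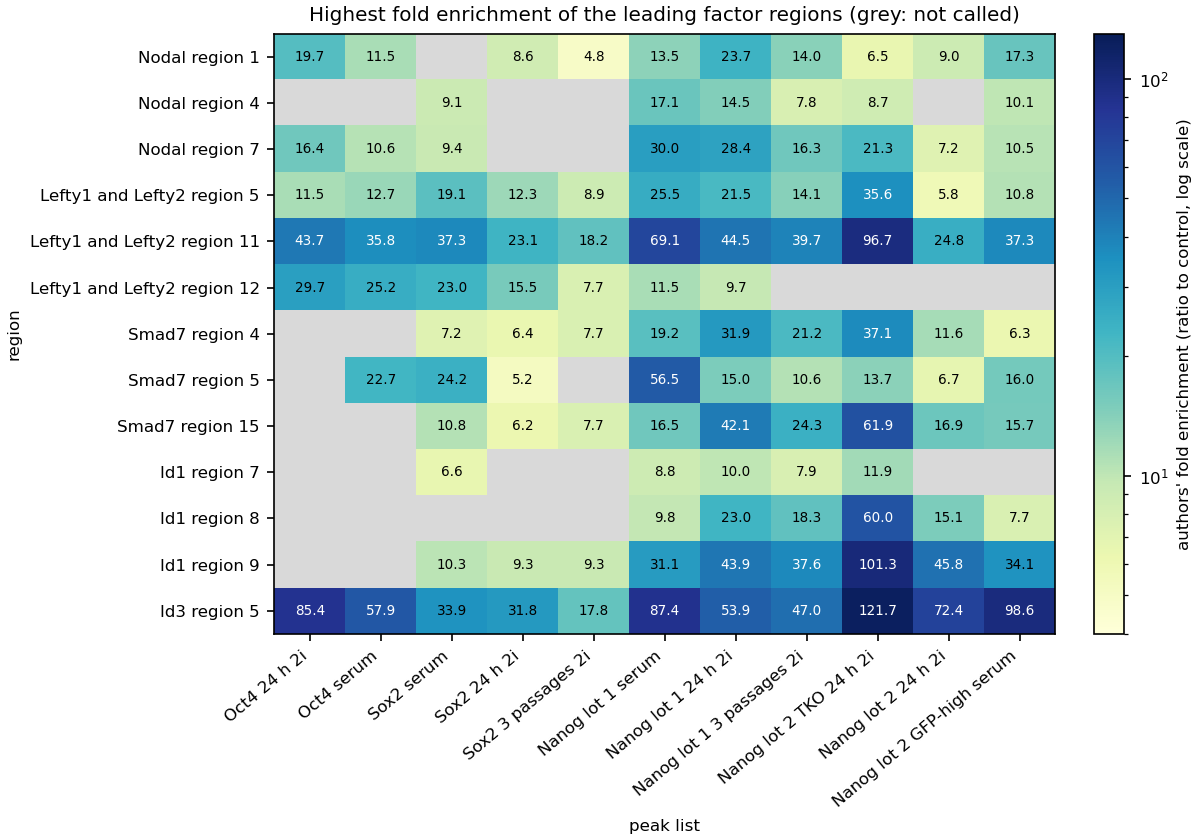
Highest fold enrichment of each leading factor region (rows) in each of the 11 factor lists (columns), with the value printed and coloured on a log scale and grey where no peak was called. Id3 region 5 has the highest or second highest fold of the windows in every column, and Lefty region 12 is grey in 4 of the 6 Nanog columns. Values compare rows within a column, since each column is a list of its own.

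At Smad7 the order of sites within the Nanog and Sox2 lists differed between media. Smad7 region 5, on chromosome 18 from 75519880 to 75521152, was the only Oct4 site of the window. Oct4 was not called there at 24 h, against a fold of 22.7 and a −log10 q of 193.0 in serum, and the 24 h list of Oct4 reached down to 85.9. Sox2 had a fold of 24.2 in serum and 5.22 at 24 h and was not called at 3 passages. Nanog had 56.5 in serum, 15.04 at 24 h and 10.6 at 3 passages with lot 1. Lot 2 gave 13.7 in TKO cells, 6.67 in KH2 cells at 24 h and 16.0 in GFP-high serum.

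Smad7 region 15 (75609066 to 75610013), 88.9 kb away, had no Oct4 peak. Its Nanog folds were 16.5 in serum, 42.1 at 24 h and 24.3 at 3 passages with lot 1. With lot 2 they were 61.9 in TKO cells, 16.9 in KH2 cells at 24 h and 15.7 in GFP-high serum. Sox2 had 10.8 in serum, 6.21 at 24 h and 7.69 at 3 passages. Within the lot 1 serum list, region 5 had 3.43 times the Nanog fold of region 15. Within the list of 24 h the ratio was 0.357, and within that of 3 passages 0.438. With lot 2 the ratio was 0.222 in TKO cells and 0.394 in KH2 cells at 24 h, and 1.01 in GFP-high serum. The Sox2 ratio was 2.25 in serum and 0.841 at 24 h. Each ratio compares 2 peaks of 1 list, the pair was chosen after its values were seen, and its spread between replicates was not measured.

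**Figure D3:**
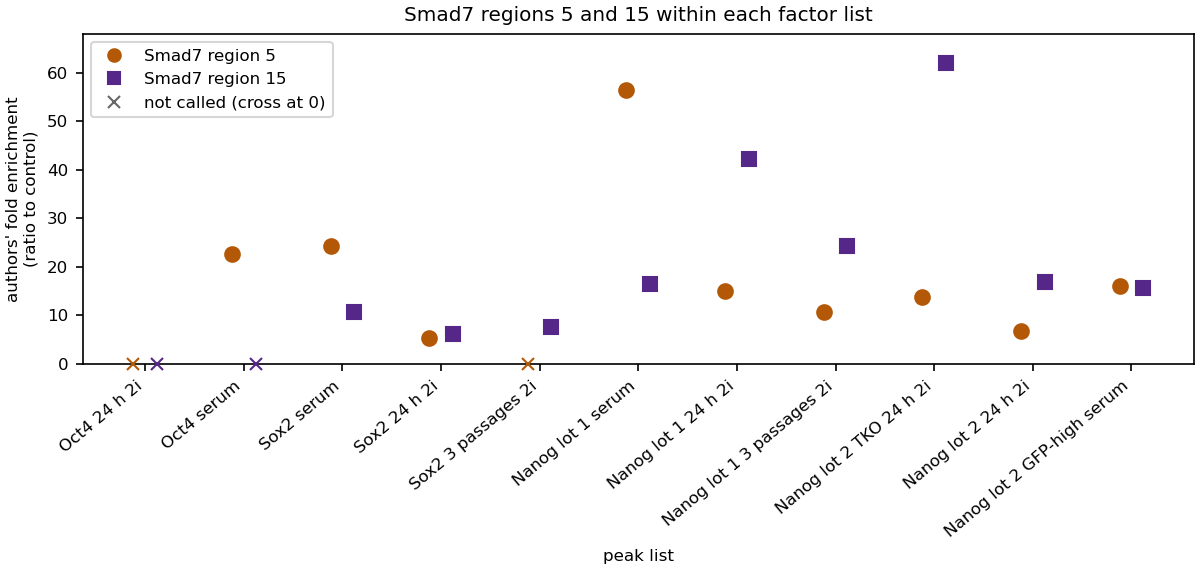
Authors' fold enrichment (vertical, ratio to control) at Smad7 region 5 (circles) and region 15 (squares) in each factor list (horizontal), with a cross at 0 where no peak was called. Region 5 lies above region 15 in the serum lists of Oct4, Sox2 and Nanog lot 1, near it in GFP-high serum, and below it in every 2i list of Sox2 and Nanog.

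Smad7 region 4 (75503588 to 75505647) was called for Nanog in all 6 lists, with folds of 6.31 to 37.1, and for Sox2 in all 3 lists, with folds of 6.36 to 7.71. The broadest H3K4me3 domain of the windows was Smad7 region 6 (75525223 to 75535883). It was covered over 10092 bp in 1 peak in serum, 7569 bp in 4 peaks at 24 h and 8330 bp in 1 peak at 3 passages. These covered lengths are 6.71, 6.75 and 6.71 times the median peak width of the serum, 24 h and 3 passage lists. The 24 h value sums 4 peaks, so it is not a breadth of 1 peak as the others are. The widest of the 4 spanned 4782 bp, beside a median width of 1121 bp in that list. Nanog peaks lay inside or at the edge of it in 5 of 6 lists, 2 with lot 1 in serum, 5 at 24 h and 2 at 3 passages.

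No Oct4 list had a peak in the Id1 window. It held 6 regions with a factor peak, and Oct4 was called in 12.4% of such regions over the genome. The Oct4 lists were the shortest, with 7820 peaks at 24 h and 5011 in serum, and ended at a −log10 q of 85.9 and 86.4. Nanog had the highest folds of the Id1 window. At Id1 region 9, on chromosome 2 from 152597618 to 152598536, the Nanog fold with lot 1 was 31.1 in serum, 43.9 at 24 h and 37.6 at 3 passages. Lot 2 gave 101.3 in TKO cells, 45.8 in KH2 cells at 24 h and 34.1 in GFP-high serum. Sox2 was called in all 3 lists with folds of 10.3 in serum, 9.30 at 24 h and 9.34 at 3 passages. The summits of the 9 lists lay within 52 bp. Id1 region 8 (152595274 to 152595983), 2.55 kb away, was bound by Nanog alone in all 6 lists, at 0.226 to 0.593 of the fold of region 9.

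Within the Id1 window, region 7 (152560797 to 152564269) held H3K4me3 and Nanog peaks. In serum H3K4me3 covered 2634 bp, from 152561636 to 152564269, with a fold of 7.99, and at 24 h 1153 bp inside that stretch, from 152562034 to 152563186, with a fold of 3.69. The H3K4me3 peak of 3 passages was another one, of 433 bp from 152561091 to 152561523 with a fold of 6.02, and overlapped neither. It also overlapped no Nanog peak of 3 passages. Nanog stayed called there with lot 1, with highest folds of 8.83 in serum, 9.99 at 24 h and 7.88 at 3 passages, and in TKO cells with 11.9, but with lot 2 neither in KH2 cells at 24 h nor in GFP-high serum. A serum Sox2 peak of 6.57 was called in neither 2i list and overlapped no Nanog peak.

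Id3 region 5, on chromosome 4 from 135699143 to 135703725, held the strongest factor binding of all 5 windows and was their only region called in all 14 lists. The H3K4me3 peaks of 2i were joined to the peaks at the factor summits only through the longer H3K4me3 peak of serum. Regions in all 14 lists were not counted over the genome. Oct4 had a fold of 85.4 at 24 h and 57.9 in serum. Sox2 had 33.9 in serum, 31.8 at 24 h and 17.8 at 3 passages. Nanog with lot 1 had 87.4, 53.9 and 47.0 in the same order. Lot 2 gave 121.7 in TKO cells, 72.4 in KH2 cells at 24 h and 98.6 in GFP-high serum. In the Nanog list of serum this peak was number 4 of 25534 by −log10 q, and it stood first among the peaks of the windows, by fold, in 9 of the 11 factor lists, second to Lefty region 11 in the Sox2 lists of serum and 3 passages. The strongest summits of the 11 lists lay within 72 bp, under the lower quartile of 82 bp of the 2214 regions that all factor lists called.

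H3K4me3 at Id3 region 5 covered 4254 bp in 2 peaks in serum, 1322 bp at 24 h and 1582 bp at 3 passages, with highest folds of 21.4, 7.69 and 17.5. In units of the median width of each list this was 2.83, 1.18 and 1.27, where the serum value sums 2 peaks. The wider of these 2 spanned 3583 bp. In serum the mark lay on both sides of the factor summits, in peaks ending at 135702725 and starting at 135703055, and the summits ran from 135702823 to 135702895. In 2i the mark ended 1.86 kb before them at 24 h and 1.57 kb at 3 passages.

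H3K4me3 over the windows as a whole was shorter in 2i than in serum. The summed length under its peaks was 56969 bp in serum, 35951 bp at 24 h and 38485 bp at 3 passages, with mean folds of 12.6, 10.3 and 10.99. Relative to serum this was 63.1% at 24 h and 67.6% at 3 passages, beside 70.02% and 84.4% over the genome. The Id1 window kept 30.2% and 35.5% and the Id3 window 38.3% and 62.9%. In the Lefty window the shares were 77.2% and 56.2%, at Smad7 62.7% and 78.1%, and at Nodal 86.6% and 101.5%. Of the 25 H3K4me3 regions of serum, 22 were narrower or absent at 24 h and 21 at 3 passages, beside 91.8% and 76.2% of the H3K4me3 regions of serum over the genome. The shares here, 88% and 84%, lie near those.

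**Figure D4:**
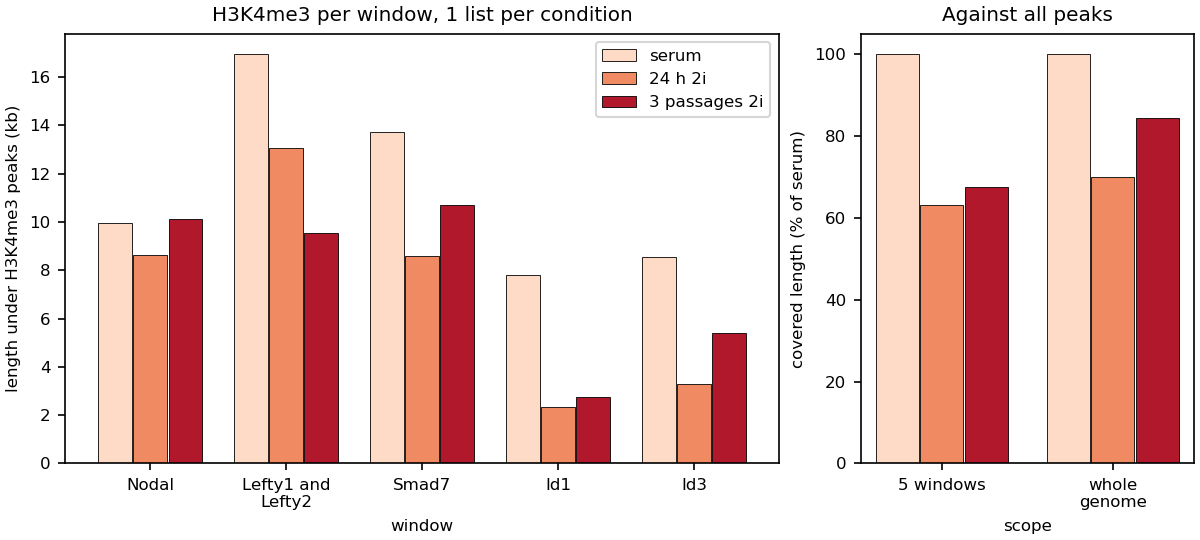
Left, length under H3K4me3 peaks in kb (vertical) per window (horizontal) in serum, at 24 h of 2i and at 3 passages, 1 list each. Right, covered length in percent of serum for the 5 windows together and for the genome, where the windows stand at 63.1% and 67.6% and the genome at 70.02% and 84.4%.

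Lefty region 3 (182779853 to 182782839) had the highest H3K4me3 fold of the windows in both 2i lists, 26.3 in serum, 27.5 at 24 h and 39.0 at 3 passages, over 2710, 2509 and 2671 bp. Lefty region 13 covered 1801 bp in serum, 1814 bp at 24 h and 1451 bp at 3 passages. At Nodal, region 3 covered 1896, 1667 and 1599 bp in the same order, and region 11 covered 1596, 1299 and 1367 bp. Id1 region 2 covered 1356, 1197 and 1286 bp, with folds of 17.1 to 24.0.

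At the Id3 window, region 7 covered 1816 bp in serum, 873 bp at 24 h and 1801 bp at 3 passages, and region 8 covered 1558, 1090 and 1283 bp. Smad7 region 3 covered 2030, 1033 and 1296 bp. Further regions were missing from at least 1 list. Nodal region 2, Smad7 region 1 and Id3 region 4 were called in serum and at 3 passages, with folds of 4.40 to 7.64, and not at 24 h. Lefty region 4 and Smad7 region 12 were called in serum alone, with folds of 5.01 and 5.16, and Lefty region 2 at 3 passages alone, with a fold of 4.32.

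By calls, of 27 H3K4me3 regions 0 were unique to 24 h and 10 to serum, and 17 were shared. The background was 6.27% of all regions only at 24 h and 24.7% only in serum, beside 37.0% here. With both lists at equal length 5 were called only in serum and 17 were shared, beside 18.4% only in serum over the genome. At 3 passages 2 of 28 regions were called only there and 7 only in serum, beside 13.6% and 20.6% over the genome. With both lists held to the higher of their minimum −log10 q values these were 5 and 5 with 16 shared, beside 17.0% and 14.8%. The Id1 window held the largest number of those missing at 24 h. Its regions 1, 3, 4 and 5 were called in serum, with a −log10 q of 15.8, 11.3, 31.7 and 21.9, and not at 24 h. The list of 24 h has the lowest minimum of the 3 H3K4me3 lists, a −log10 q of 4.91. It is also the shortest of them, with 17438 peaks. Whether these regions lay under its limit was not tested. Regions 1 and 3 were called again at 3 passages, with folds of 4.43 and 4.61, while regions 4 and 5, with serum folds of 9.65 and 5.72, were not.

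The counts of factor regions stand here beside the same counts over the genome. For Nanog with lot 1, 17 of 39 regions came from the 24 h list alone and 2 from the serum list alone, which is 43.6% and 5.13%, beside 44.5% and 8.95% over the genome. At 3 passages 6 of 28 were called only there and 4 only in serum, beside 36.4% and 16.9%. With lot 2 the order was opposite, 1 of 19 only at 24 h and 6 only in GFP-high serum, beside 19.2% and 33.2%. At equal length lot 1 gave 5 and 5 at 24 h with 17 shared, beside 24.0% and 23.8% over the genome. At 3 passages these were then 0 and 7 with 15 shared, beside 25.96% and 25.6%.

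In TKO cells, 20 of 33 Nanog regions were called that were not called in KH2 cells at 24 h, and 0 the other way, beside 51.8% and 15.2% over the genome. At equal length these were 5 and 2 with 11 shared, beside 29.7% and 29.7% over the genome. All 13 regions of the KH2 list were called in TKO cells. TKO cells are also another line than KH2, and line and knockout cannot be told apart. A single list gave 15 of the 58 regions, or 25.9%, beside 36.9% over the genome. Of these 15, 7 came from the TKO list, with folds of 5.91 to 11.4 (10.2 at Id3 region 2), which is 46.7% beside 40.4% over the genome.

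For Sox2, 1 of 15 regions was unique to 24 h and 5 to serum, beside 33.5% and 22.7% over the genome. With both lists held to the higher of the minimum −log10 q values, serum alone had 8 and 24 h alone 1, with 6 shared. The genome shares were then 68.1% and 3.57%. At 3 passages 1 was called only there and 6 only in serum, beside 13.8% and 42.6%. At equal length these were 2 and 3 with 7 shared, beside 26.4% and 26.5%. The 3 Sox2 regions of the Lefty window and the 1 of Id3 were shared in both comparisons. For Oct4, 1 of 8 regions was called only at 24 h, a second peak at Nodal region 7, and 1 only in serum, Smad7 region 5, beside 43.1% and 11.1%. With the Oct4 lists at equal length these were 1 and 1 with 6 shared, beside 24.7% and 24.7%. All 3 factors met in 5 of 39 regions at 24 h and in 6 in serum, beside 11.8% and 7.33% of all regions. In both media they met in 4 of the 39, beside 2939 of 49202 regions over the genome. The 4 were Lefty regions 5, 11 and 12 and Id3 region 5, counted by merged region. At Lefty region 12 the Sox2 and Nanog peaks of 24 h did not overlap each other and were joined by the Oct4 peak. Nodal region 1 had all 3 at 24 h and lacked Sox2 in serum, while Nodal region 7 and Smad7 region 5 had all 3 in serum only.

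**Figure D5:**
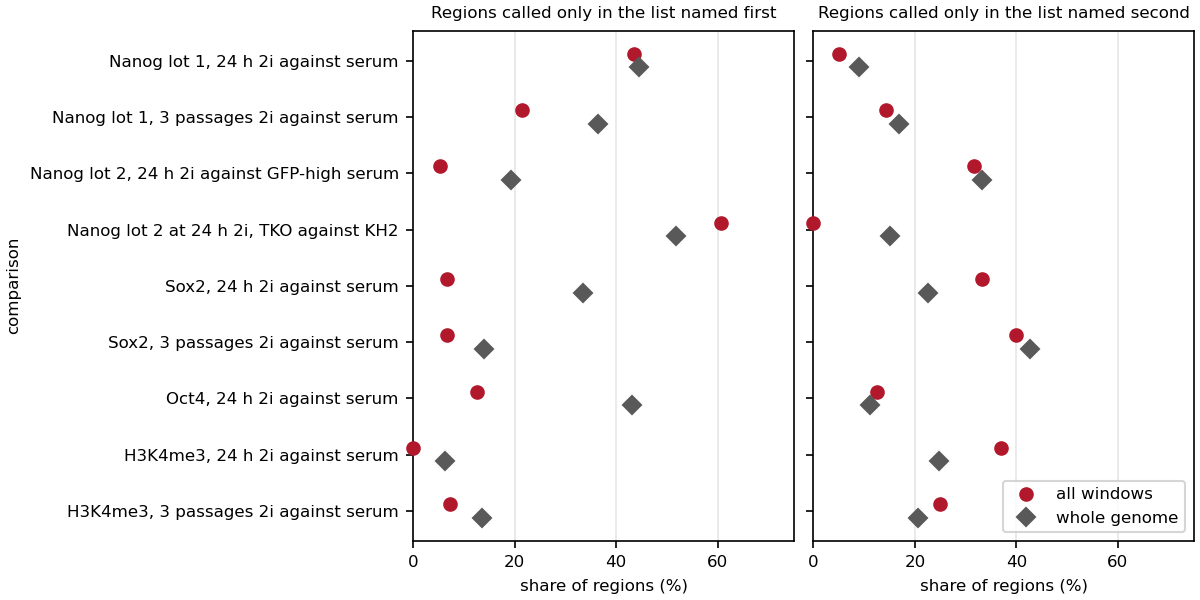
Share of regions in percent (horizontal) called only in the list named first (left) or second (right) for each comparison (vertical), in the 5 windows (circles) and over the genome (diamonds). Sox2 and Oct4 regions found only at 24 h take 6.67% (1 of 15) and 12.5% (1 of 8) in the windows and 33.5% and 43.1% over the genome. With both Sox2 lists held to a −log10 q of at least 10, the Sox2 share over the genome was 9.59%, with 1 region in the windows. With the Oct4 lists at equal length, the Oct4 share over the genome was 24.7%, with 1 region in the windows.

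Called in at least 2 lists of 2i and in no serum list were 5 of the 58 regions, or 8.62%, beside 12.1% of all regions, and their peaks were all of Nanog. These were Lefty regions 6 and 14, Smad7 regions 7 and 11 and Id3 region 1, with highest folds of 6.06, 10.3, 8.46, 6.64 and 7.88. Each of their folds lay below the median of its list, which was 10.8 with lot 1 at 24 h, 8.90 with lot 1 at 3 passages and 10.8 in TKO cells. In at least 2 serum lists and in no KH2 list of 2i were 0 regions, beside 1.21% over the genome.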

How the data were processed

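The deposited data are narrowPeak lists, which per the submitters' processing notes came from MACS2 on build mm9. The notes also name BWA 0.5.7, Bowtie 0.12.7, TopHat, Cufflinks 2.2.1 and Cuffdiff, and the aligner behind each list was not given in the sources used here. By their names, peaks were called on pooled replicates over a control. The authors' fold enrichment is a ratio over that control, and the authors' q-value is given as −log10 q. The deposited summit offset was used for summit positions. Of 36 samples in the labels, 22 stand behind the 14 lists; RNA, H3K27me3 and whole-cell extract samples were not analysed here.

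Peaks off the numbered and sex chromosomes were left out, and positions count from 1. Regions were peaks of the lists compared, joined by at least 1 bp, so peaks of 1 region may be linked only through another peak between them. In the 9 comparisons between 2 lists, no test was possible with 1 list per condition, and counts are set beside those over the genome. Depth is unknown because no counts are in the lists. The lowest −log10 q differs between lists, so absence from a list is not absence of binding. Values of −log10 q from 2 lists are also not on 1 scale. Windows, members and gene lists were chosen with earlier results of these data known. Named are H3K4me3 regions, the 3 regions per window in most factor lists, and regions found only in 2i or only in serum lists, 41 of 58 in all, and the rest are given by counts and ranges. Other pathway genes were not analysed here, as no mm9 annotation was at hand. The overlap code was tested on simulated data. Python 3.11.15, pandas 2.3.3, numpy 2.4.6 and matplotlib 3.10.9 were used.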

Additional observations from a re-analysis of the deposited data

Results flagged for a closer look

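The 2 antibody lots of Nanog gave opposite net directions between 24 h of 2i and serum cells, and the difference between lots was not tested. Over all windows, regions only at 24 h minus regions only in serum came to 15 with lot 1 and -5 with lot 2. In the Nodal window the values were 3 and -3, in the Lefty window 2 and -1, and in the Id1 window 1 and -1. Over the genome lot 1 had 20377 regions only at 24 h and 4095 only in serum. Lot 2 had 6275 and 10811, so the directions were opposite over the genome as well and are not particular to these windows. With lists of equal length lot 1 gave 5 and 5 over all windows and lot 2 gave 2 and 4, so the directions were then no longer opposite. The genome shares were then 24.0% and 23.8% with lot 1, and 25.4% and 25.6% with lot 2. The lots also differ in their serum cells, which are labelled GFP-high for lot 2 only, and in list length, 41755 peaks at 24 h and 25534 in serum for lot 1, and 21893 and 26415 for lot 2.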

How the results depend on the processing

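Of the 78 recomputed counts of regions between conditions, 63 stayed within 1.5 times the reported count. Lists of equal length moved 11 counts by more than that and left 9 within it. A minimum −log10 q of 10 could not change the counts of Nanog, of Oct4 or of H3K4me3 at 3 passages against serum. The lists behind those counts all ended above 10, so their stability at that setting is no test. At equal length, Nanog lot 1 gave 5 regions unique to 24 h and 5 to serum, beside genome shares of 24.0% and 23.8%. For 3 passages against serum it gave 0 unique to 2i and 7 to serum, beside 25.96% and 25.6%. Lot 2 then gave 2 only at 24 h, and TKO against KH2 cells gave 5 and 2. Sox2 gave 2 only at 3 passages and 3 only in serum, H3K4me3 gave 5 only in serum against 24 h, and all 3 factors met in 3 regions at 24 h. With lists at the larger lowest −log10 q, Sox2 gave 8 regions only in serum against 24 h and 0 only at 3 passages, and H3K4me3 gave 5 only at 3 passages and 5 only in serum. A minimum −log10 q of 10 left 0 Sox2 regions only at 3 passages, and an overlap of 50% of the shorter peak moved no count by more than 1.5 times. The number of lists that call each region, added after the data were seen, moved by over 1.5 times for 28 of 58 regions at equal length and for none at a minimum of 10. No paired analysis was possible because each condition has 1 pooled list. For the same reason no replicate could be left out, and what depth limits is unknown.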
